A study of Mus musculus with 29 samples.

Results

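Solute carriers are membrane proteins that move ions, nutrients and metabolites across the plasma membrane or the membranes of organelles, and their gene names begin with Slc. In B cell precursors they bring in amino acids, sugars, metals and vitamins, and they link the cytosol to the mitochondria and the Golgi. Pax5 is the transcription factor that commits progenitors to the B lineage, and progenitors that lack it stop at the pro-B stage. The genes described here were chosen by name and by level, as Slc-named entries whose mean TPM (the number of transcripts of a gene scaled to a fixed library total, corrected for gene length) exceeded 1 in the wild-type or in the Pax5(-/-) pro-B libraries, apart from Slc2a1, Slc2a3, Slc2a6, Slc16a1 and Slc16a3, which were set aside as glucose and monocarboxylate carriers. They numbered 190 of 372 Slc-named entries and of 24732 entries in all. Of the other Slc-named entries, 177 lay at or below 1 TPM in both genotypes and 61 of those were listed at 0 in all 5 libraries. The members just inside the limit were Slc22a17 with a larger genotype mean of 1.01 TPM and Slc25a27 with 1.03 TPM, and the entries just outside were Slc18b1 with 0.874 TPM and Slc25a43 with 0.865 TPM. The names picked 184 carriers and 6 entries that only carry the name of a carrier.

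The study sequenced poly(A) RNA from bone marrow pro-B cells sorted straight from C57BL/6 mice that were 3 weeks old. The groups were 3 libraries of wild-type pro-B cells, 2 of Pax5(-/-) pro-B cells, which lack Pax5 from the germline on, and 3 of pooled pro-B cells labelled Pax5(+/+) Meox2-cre, from mice in which the Meox2 locus expresses Cre recombinase across the early embryo. A sample list of the study gives the Meox2-cre mice as Pax5(+/-) instead, and Pax5 was at 394, 376 and 397 TPM in them. The surface gates differed between genotypes, and Pax5-deficient cells were gated as Ly6D+. The labels do not say whether the libraries of a group are separate mice, so the tests measure only the spread between libraries.

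The targeted gene, Pax5, had 342, 386 and 391 TPM with the wild-type allele and 43.0 and 39.1 TPM without it. Ly6d, whose protein was used in the gate, rose from 219 to 2258 and 3033 TPM. The files hold TPM, which keep no read depth, and low values gave a depth of 0.855 and 1.54 for the Pax5(-/-) libraries relative to the first wild-type library. The wild-type libraries were not alike: the median member was 0.25 higher on the log2 scale in the third library than in the first. Summed T cell markers were at 63.8 to 84.2 TPM in wild type and 203 and 209 TPM in Pax5(-/-), but nearly all of this was Lck, which rose from 70.9, 54.8 and 72.2 TPM to 196 and 198 TPM. Of the other 7, Cd5 fell, Cd4 had means of 0.534 and 4.93 TPM, and Cd3e, Cd3d, Cd3g and Cd8a stayed under 0.5 TPM in every library. Summed plasmacytoid dendritic markers were at 88.8 to 128 TPM and at 142 and 214 TPM, most of it Bst2, which did not pass the test (adjusted p = 0.1), while Cox6a2 rose and Siglech had means of 0.600 and 5.43 TPM. Summed myeloid markers were at 51.4 to 266 TPM and at 65.0 and 96.0 TPM. Among them Elane (means of 11.4 and 1.38 TPM) and Itgam (8.47 and 3.17 TPM) fell and none rose, with Mpo (21.6 and 39.9 TPM) not past the test. Summed NK cell markers were at 9.74 to 19.9 TPM and at 22.7 and 31.1 TPM. Of these Nkg7 rose (4.06 and 20.3 TPM) and Klrb1c (5.61 and 1.16 TPM) and Prf1 (4.69 and 1.14 TPM) fell. Gzma had means of 0.523 and 4.30 TPM. The part of these cells in the carriers' differences was not tested. Markers of erythroid cells fell in part, and their values are given below beside those of Slc4a1 and other carriers.

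The limit of 1 TPM that chose the members also filtered the fit, so a member above it in only one genotype had the higher mean there by selection. Counts by group are therefore given for the 168 members above 1 TPM in both genotypes, and the other 22 are given as values. At an adjusted p below 0.05, from limma over all 12066 genes above 1 TPM in a genotype, 34 of the 168 fell without Pax5 and 31 rose, or 20.2% and 18.5%, beside a background of 19.9% and 14.7%. With all 190 members counted there were 44 lower and 34 higher, against 21.5% and 15.6% of all genes. The balance of directions depended on the scaling: rescaling by median ratios gave 40 lower and 44 higher (all genes 18.6% and 20.0%), and quantile normalization 41 and 46 (all genes 20.1% and 20.3%). The median change was -0.16 on the log2 scale over the members and -0.12 over all genes tested.

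Many of these calls were lost when a library was left out. The counts that follow for each Pax5(-/-) library include members above 1 TPM in only one genotype. With the first Pax5(-/-) library left out, 16 members were lower and 13 higher, beside 8.2% and 6.61% of all genes, and with the second left out, 13 and 15, beside 6.83% and 5.83%. Of the 34 lower and 31 higher members above 1 TPM in both genotypes, 7 and 10 were called in each of the 5 fits with one library left out. The 7 were Slc7a7, Slc12a7, Slc52a3, Slc11a2, Slc1a5, Slc10a7 and Slc9a7, and the 10 were Slc25a1, Slc39a4, Slc35a1, Slc6a6, Slc27a2, Slc39a6, Slc29a3, Slc16a10, Slc25a45 and Slc9a9. The other members said below to rise or fall lost their call in at least one such fit. The share of all genes called in each of these fits was not computed, so the lists are a description.

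The thresholds of the study's methods ask for an adjusted p below 0.05, a change over 3-fold and a mean above 5 TPM in a genotype. Among the 168 members above 1 TPM in both genotypes, 6 were lower (Slc4a1, Slc52a3, Slc6a9, Slc11a2, Slc12a7 and Slc7a7) and 5 were higher (Slc25a1, Slc39a4, Slc35a1, Slc27a2 and Slc9a9), beside a background of 2.74% and 2.4%. Another 4 members met the same limits but passed 1 TPM in only one genotype, and they are described by their values alone: Slc45a3, Slc12a3 and Slc38a5 in wild type and Slc5a9 in Pax5(-/-). With them the counts were 9 and 6, beside 3.15% and 2.71% of all genes. In each of the 15 the libraries of the genotypes did not overlap. Over the 168 members this held for 60 on the lower side and 51 on the higher side, beside 36.3% and 25.4% of all genes above 1 TPM in both genotypes. In the GENCODE annotation of mm9 the genes lie at chr16:17925304-17928312 for Slc25a1, chr8:96853092-96890113 for Slc12a3, chr1:133867186-133879540 for Slc45a3, chr15:76442815-76447322 for Slc39a4 and chr11:102210138-102227517 for Slc4a1.

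**Figure D1:**
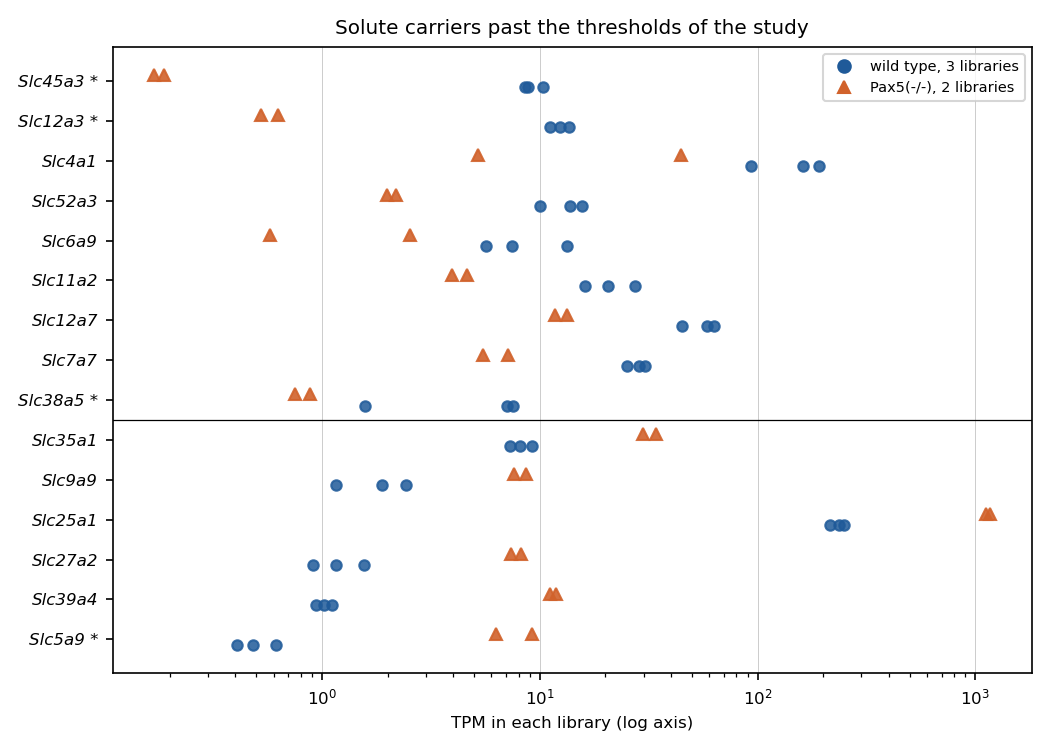
TPM (log axis) of the 15 solute carriers past the study's thresholds in each of the 3 wild-type libraries (circles) and 2 Pax5(-/-) libraries (triangles), ordered by log2 fold change. An asterisk marks the 4 members above 1 TPM in only one genotype. Circles and triangles do not overlap in any row, and Slc25a1 stands far to the right of the others.

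RefSeq promoters were found for 10 of these 15 members, and those of Slc25a1, Slc12a7 and Slc38a5 hold the E-box letters CACGTG. They are shown because the first was higher and the other two were lower in Pax5(-/-) cells. Each is the 300-base window from 250 bases before to 50 bases after the start, from RefSeq on GRCm38.p6, with the E-box in capitals.
Slc25a1, chr16:17928170-17928469, minus strand: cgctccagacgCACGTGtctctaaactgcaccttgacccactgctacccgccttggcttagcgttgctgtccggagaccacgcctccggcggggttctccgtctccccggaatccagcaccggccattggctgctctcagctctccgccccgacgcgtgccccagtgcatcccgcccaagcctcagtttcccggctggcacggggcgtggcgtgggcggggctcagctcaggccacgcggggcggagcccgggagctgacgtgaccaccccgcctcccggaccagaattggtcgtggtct
Slc12a7, chr13:73763410-73763709, plus strand: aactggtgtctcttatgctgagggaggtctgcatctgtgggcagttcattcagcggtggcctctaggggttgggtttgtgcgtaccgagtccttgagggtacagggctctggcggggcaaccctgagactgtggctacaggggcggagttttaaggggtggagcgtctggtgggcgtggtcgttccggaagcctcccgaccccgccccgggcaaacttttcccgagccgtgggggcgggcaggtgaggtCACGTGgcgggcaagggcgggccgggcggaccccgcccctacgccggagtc
Slc38a5, chrX:8271131-8271430, plus strand: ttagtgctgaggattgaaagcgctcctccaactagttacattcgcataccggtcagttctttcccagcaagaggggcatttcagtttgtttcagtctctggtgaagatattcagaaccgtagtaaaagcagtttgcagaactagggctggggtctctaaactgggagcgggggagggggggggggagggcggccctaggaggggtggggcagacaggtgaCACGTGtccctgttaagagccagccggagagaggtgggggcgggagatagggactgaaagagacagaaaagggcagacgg
Over all members, 142 had RefSeq promoters, with 192 windows, and CACGTG (the same on both strands) stood in 27 of the windows, or 14.1%, against 7.15% of all 32851 windows. GCGTGAC, part of the Pax5 consensus, was searched on both strands and stood in 8 of the members' windows, or 4.17%, against 2.09% of all windows, and in no window of the 10. TGATAA, the letters bound by GATA factors, stood in 4.17% of the members' windows and 9.05% of all windows, and TGACTCA, the AP-1 letters, in 2.6% and 5.2%. All windows were taken whether or not the gene was expressed here, and base composition was not matched. Enrichment of these letters at the members was therefore not tested.

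Mitochondrial carriers were the most abundant group, with 40 members that together held 2897, 2760 and 3069 TPM in wild-type libraries and 3964 and 3922 TPM in Pax5(-/-) libraries. Slc25a1, the citrate carrier that exports citrate to the cytosol, was at 236, 251 and 215 TPM in wild-type cells and 1170.4 and 1123 TPM in their Pax5(-/-) counterparts. It rose 4.91-fold, with a log2 fold change of 2.29 ± 0.10 (SE, adjusted p = 9.16e-06), and was the most abundant member in both Pax5(-/-) libraries. Without Slc25a1 the group held 2675 ± 173 TPM (SD, n = 3) in wild type and 2796 ± 3.41 TPM (n = 2) in Pax5(-/-), so most of the difference in the sum was that one gene. The libraries of both genotypes overlapped in that remainder.

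Of the 38 mitochondrial members above 1 TPM in both genotypes 5 fell and 8 rose, Slc25a1 included, or 13.2% and 21.1%, beside the 19.9% and 14.7% of all such genes. The median of all 40 was -0.09, and it turned to 0.0454 when libraries were rescaled by median ratios. Slc25a3, the phosphate carrier, was at 650, 601 and 608 TPM in wild type and 716 and 734 TPM in Pax5(-/-), and it missed the threshold (adjusted p = 0.0909). Slc25a5, an ADP/ATP carrier, was at 634, 528 and 712 TPM against 535 and 551 TPM, within the wild-type range. Slc25a4, another ADP/ATP carrier, rose 1.33-fold and Slc25a39, which carries glutathione, rose 1.41-fold. Slc25a45 rose 2.01-fold, Slc25a53 2.22-fold and Slc25a20, the carnitine-acylcarnitine carrier, 1.46-fold. Slc25a51, which carries NAD, fell to 54.0% of wild type, and the ATP-Mg/phosphate carriers Slc25a24 and Slc25a25 fell to 47.1% and 50.6%.

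**Figure D2:**
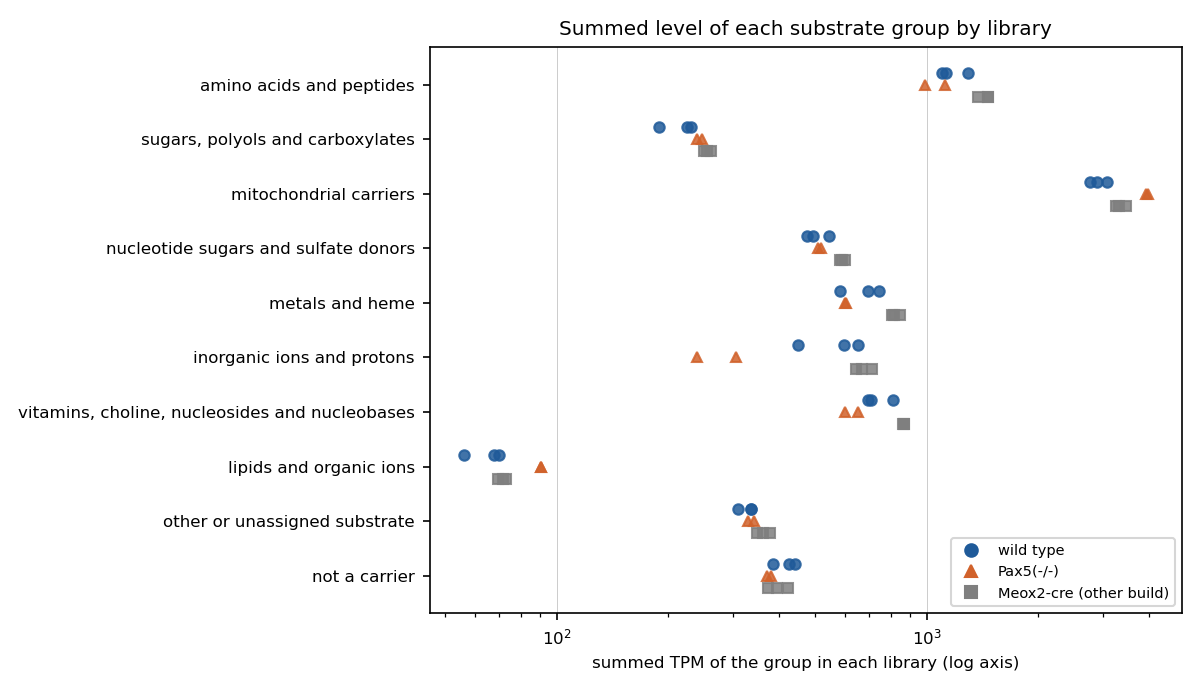
Summed TPM (log axis) of each substrate group in the 3 wild-type (circles), 2 Pax5(-/-) (triangles) and 3 Meox2-cre libraries (squares, another genome build). The inorganic ion group sits lower in both Pax5(-/-) libraries (304 and 240 TPM) than in any wild-type library, and the mitochondrial group sits higher.

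Carriers of inorganic ions and protons were mostly lower in Pax5(-/-) cells: 9 of the 18 members above 1 TPM in both genotypes fell and 1 rose, or 50.0% and 5.56%, beside 19.9% and 14.7% of all such genes. Their median was -0.58, and that of all 20 members was -0.60. The group held 450, 599 and 653 TPM in wild-type libraries and 304 and 240 TPM in Pax5(-/-) libraries. Without Slc4a1 it still held 418 ± 54.2 TPM (SD, n = 3) against 247 ± 17.8 TPM (n = 2), with no overlap. The median of the 20 was -0.49 to -0.70 when any one library was left out.

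The cation-chloride cotransporters, which move potassium or sodium with chloride and set cell volume, make up 5 of the 20. Of the 4 that passed 1 TPM in both genotypes 3 fell and none rose, beside 19.9% and 14.7% of all such genes. Slc12a3, the sodium-chloride cotransporter known from the kidney, was at 11.1, 12.4 and 13.7 TPM in wild type against 0.629 and 0.522 TPM in Pax5(-/-) cells. It passed the 1 TPM limit only in wild type, so its difference is given as values without a test. Slc12a7, a potassium-chloride cotransporter, was at 44.9, 63.2 and 58.6 TPM against 13.4 and 11.8 TPM. It fell with a log2 fold change of -2.09 ± 0.17 (SE, adjusted p = 0.000138). Slc12a4 fell to 56.4% of wild type.

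Anion exchangers and sodium-proton exchangers followed the same direction in part. Slc4a2, a chloride-bicarbonate exchanger, fell to 64.8% of wild type and Slc4a7, a sodium-bicarbonate cotransporter, to 50.5%. The organelle exchanger Slc9a7 fell to 39.7%, while Slc9a9, also an organelle exchanger, rose from 1.16, 2.42 and 1.89 TPM to 7.59 and 8.61 TPM (log2 fold change 1.92 ± 0.29, SE, adjusted p = 0.0021).

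Slc4a1, known as band 3 of red cells, was at 93.3, 162 and 192 TPM in wild-type cells and 44.5 and 5.21 TPM in their Pax5(-/-) counterparts. The Pax5(-/-) libraries lay far apart, and the log2 fold change was -3.16 ± 0.76 (SE, adjusted p = 0.0149). It was -1.67 (adjusted p = 0.0628) without the second Pax5(-/-) library and -3.07 (adjusted p = 0.0518) without the second wild-type library. The summed erythroid markers were at 80.1, 172 and 200 TPM in wild type and 62.2 and 8.94 TPM in Pax5(-/-), in the same library order as Slc4a1, with 4 of the 8 markers found lower. Hba-a2 and Hbb-b1 were listed at 0 in all 5 libraries. Slc6a9, a glycine carrier, was at 5.65, 7.48 and 13.4 TPM against 2.53 and 0.576 TPM, again lowest in the second Pax5(-/-) library, without which its adjusted p was 0.119. Slc38a5, a glutamine carrier that passed 1 TPM only in wild type, was at 1.57, 7.502 and 7.06 TPM against 0.879 and 0.752 TPM. Slc11a2, an iron carrier, was at 16.1, 20.7 and 27.4 TPM against 4.63 and 3.94 TPM. The part of erythroid cells in these differences was not tested, and in bulk RNA fewer cells of a type and less RNA per cell cannot be told apart.

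**Figure D3:**
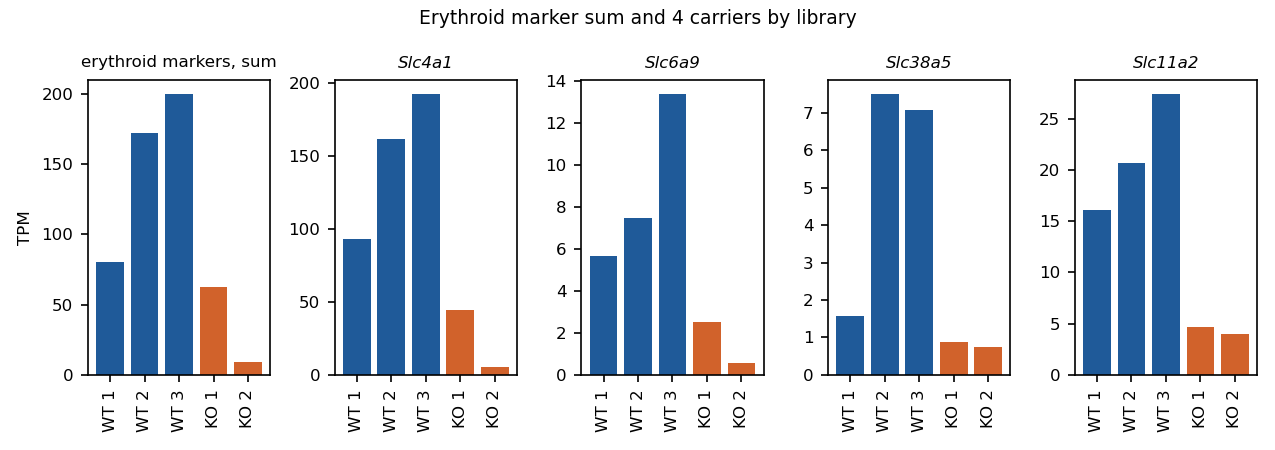
TPM of the summed erythroid markers and of Slc4a1, Slc6a9, Slc38a5 and Slc11a2 in each wild-type (WT) and Pax5(-/-) (KO) library. The marker sum and Slc4a1 order the libraries alike, whereas the Slc11a2 bars of the 2 Pax5(-/-) libraries are nearly equal.

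Of the 24 metal carriers above 1 TPM in both genotypes 3 fell and 6 rose, beside a background of 19.9% and 14.7%. The 6 that rose were all of the Slc39 family, which brings zinc into the cytosol and has 12 members here, 1 of which fell. In the Slc30 family, which moves zinc out of the cytosol, 1 of 6 fell and none rose, and the difference between the families was not tested. Slc39a4, a zinc importer known from the gut, was at 1.02, 1.12 and 0.935 TPM in wild type against 11.1 and 11.9 TPM in Pax5(-/-) cells. It rose 11.2-fold, with a log2 fold change of 2.98 ± 0.22 (SE, adjusted p = 7.78e-05), the largest rise among members above 1 TPM in both genotypes. Slc39a6 was at 25.9, 23.8 and 22.4 TPM against 57.2 and 52.2 TPM. Slc39a11 rose 1.98-fold, Slc39a8 1.76-fold, Slc39a14 1.75-fold and Slc39a10 1.44-fold, and Slc39a13 fell to 54.8%.

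Slc39a7, the zinc channel of the endoplasmic reticulum and the most abundant of the family, was at 131, 128 and 156 TPM against 129 and 120 TPM and did not pass the test (adjusted p = 0.353). Slc30a5, which loads zinc into the secretory pathway, was at 87.1, 156 and 162 TPM against 63.1 and 68.6 TPM. Its first wild-type library lay closer to the Pax5(-/-) libraries than to the other wild-type libraries, and the adjusted p was 0.0208, which rose to between 0.0550 and 0.164 without any one of the other 4 libraries. The summed Slc39 family was at 329 ± 17.1 TPM (SD, n = 3) in wild type and 372 ± 6.27 TPM (n = 2) in Pax5(-/-). Slc11a2, the iron importer named above, fell with a log2 fold change of -2.17 ± 0.24 (SE, adjusted p = 0.000518). Slc48a1, which carries heme, was at 79.3, 83.6 and 83.1 TPM against 72.4 and 70.4 TPM and did not pass the test (adjusted p = 0.146).

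Of the 23 amino acid carriers above 1 TPM in both genotypes 5 fell and 4 rose, or 21.7% and 17.4%, near the background of 19.9% and 14.7%. The median was 0.0408 over the 23 and -0.06 over all 25, and the latter turned to 0.0525 when libraries were rescaled by median ratios. Slc7a7, which pairs with Slc3a2 to exchange cationic amino acids, was at 25.2, 28.7 and 30.6 TPM in wild-type cells and 7.15 and 5.49 TPM in their Pax5(-/-) counterparts (log2 fold change -2.08 ± 0.18, SE, adjusted p = 0.000153). Slc1a5, the main glutamine importer of many dividing cells, was at 291, 246 and 352 TPM against 125 and 109 TPM, a fall to 39.5%. Without Slc1a5 the summed group was at 879 ± 55.1 TPM (SD, n = 3) in wild type and 939 ± 81.3 TPM (n = 2) in Pax5(-/-). Slc38a2, another glutamine carrier, fell to 62.8% (adjusted p = 0.0194, and 0.186 without the second Pax5(-/-) library).

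Slc7a5, which imports large neutral amino acids such as leucine, was at 156, 129 and 156 TPM against 207 and 162 TPM and missed the threshold (adjusted p = 0.113). Slc6a6, the taurine carrier, rose from 41.0, 45.1 and 43.4 TPM to 95.9 and 86.2 TPM. Slc16a10, a carrier of aromatic amino acids, rose from 6.06, 6.74 and 8.74 TPM to 20.9 and 20.8 TPM, a fitted change just short of the 3-fold threshold. Slc43a2 and Slc38a7 rose 1.35-fold and 1.49-fold.

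Carriers of sugars, polyols and carboxylates included the members with the greatest fall and the greatest rise on the log2(TPM + 0.5) scale. On that scale Slc35f4, of unassigned substrate, changed less, although it was at 0.0673, 0 and 0 TPM in wild type and 1.26 and 1.35 TPM in Pax5(-/-). Slc45a3, a sugar carrier also known as prostein, was at 8.86, 10.3 and 8.53 TPM in wild type against 0.170 and 0.188 TPM in Pax5(-/-) cells. Slc5a9, a sodium-coupled carrier of mannose and glucose, was at 0.407, 0.484 and 0.617 TPM against 9.17 and 6.26 TPM. Each passed 1 TPM in only one genotype, so both are given as values without a test. Of the 10 members above 1 TPM in both genotypes 3 fell and 1 rose, beside 19.9% and 14.7% of all such genes. The riser, Slc45a4, was 1.91-fold higher (adjusted p = 0.00522), and it lost its call without the first (adjusted p = 0.0843) or the second Pax5(-/-) library (0.0585). The sugar phosphate carriers Slc37a1, Slc37a2 and Slc37a3 fell to 60.2%, 71.3% and 43.9% of wild type. The other member of that family here, Slc37a4, was higher without passing the test (log2 fold change 0.56). The adjusted p of Slc37a2 was 0.0460 and reached 0.282 without the first Pax5(-/-) library. Slc50a1 was at 72.0, 84.3 and 94.6 TPM against 89.99 and 101 TPM, which overlap (adjusted p = 0.291).

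Nucleotide sugar carriers feed the glycosylation enzymes of the Golgi, and 3 of 13 fell and 2 rose, or 23.1% and 15.4%, near the background. Slc35a1, which carries CMP-sialic acid, was at 7.33, 8.10 and 9.18 TPM in wild-type cells and 29.7 and 34.1 TPM in their Pax5(-/-) counterparts. It rose 3.89-fold, with a log2 fold change of 1.90 ± 0.17 (SE, adjusted p = 0.000185). Slc35c1, the GDP-fucose carrier, rose 1.33-fold, and Slc35b4 and Slc35a3 fell to 55.7% and 58.4%. The 3 most abundant members, Slc35a4, Slc35b2 and Slc35c2, did not pass the test (adjusted p of 0.854, 0.122 and 0.756).

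Vitamin, choline, nucleoside and nucleobase carriers numbered 16 above 1 TPM in both genotypes, of which 4 fell and 4 rose, beside the same background. Slc52a3, which carries riboflavin, was at 15.6, 13.7 and 10.04 TPM in wild type against 1.98 and 2.19 TPM in Pax5(-/-) cells (log2 fold change -2.37 ± 0.23, SE, adjusted p = 0.000303). Slc29a1, the main equilibrative nucleoside carrier, was at 256, 226 and 244 TPM against 208 and 184 TPM and just missed the threshold (adjusted p = 0.054). Its relatives Slc29a2 and Slc29a3 rose 2.34-fold and 2.26-fold, whereas Slc29a4 fell (log2 fold change -0.78). Slc43a3, a purine nucleobase carrier, fell to 62.9% (adjusted p = 0.0625 without the second Pax5(-/-) library). The vitamin C carrier Slc23a2 rose 2.00-fold, and the folate carrier Slc19a1 rose 1.37-fold.

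Lipid and organic ion carriers were few, with 8 members, and held 56.0 to 69.7 TPM in wild type and 90.4 TPM in both Pax5(-/-) libraries. Slc27a2, a fatty acid carrier and acyl-CoA synthetase, was at 1.16, 1.57 and 0.904 TPM against 7.40 and 8.19 TPM. It rose with a log2 fold change of 2.30 ± 0.26 (SE, adjusted p = 0.000538). Slc27a1 rose from 30.0, 34.6 and 35.2 TPM to 55.7 and 54.0 TPM but lost its call without the first (adjusted p = 0.0616) or the second Pax5(-/-) library (0.0600), whereas Slc27a4 (adjusted p = 0.658) and the carnitine carrier Slc22a5 (adjusted p = 0.819) did not pass the test.

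Among the 16 members above 1 TPM in both genotypes with another or unassigned substrate 2 fell and 2 rose. That was 12.5% in each direction, beside 19.9% and 14.7% of all such genes. Slc10a7 and Slc35e1 fell to 56.6% and 64.7% of wild type, and Slc35e1 lost its call without the first (adjusted p = 0.0631) or the second Pax5(-/-) library (0.0878). Slc14a1, the urea carrier of red cells, rose from 13.3, 10.7 and 15.9 TPM to 25.1 and 29.0 TPM, against the direction of the erythroid markers. Slc38a10 was at 100, 112 and 93.0 TPM against 120 and 105 TPM (adjusted p = 0.372). Of the 6 entries that are not carriers, the scaffold Slc9a3r2 rose from 1.80, 2.15 and 2.17 TPM to 5.97 and 5.19 TPM (adjusted p = 0.0599 without the first Pax5(-/-) library). The scaffold Slc9a3r1, at 328 ± 41.5 TPM (SD, n = 3) in wild type and 300 ± 1.34 TPM (n = 2) in Pax5(-/-), did not pass the test (adjusted p = 0.476), nor did Slc4a1ap, Slc7a6os and Slc2a4rg-ps. Slc36a1os, read from the strand opposite Slc36a1, was at 1.88 TPM in Pax5(-/-) and 0.829 TPM in wild type, and its reads cannot be told from those of its partner without strand.

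**Figure D4:**
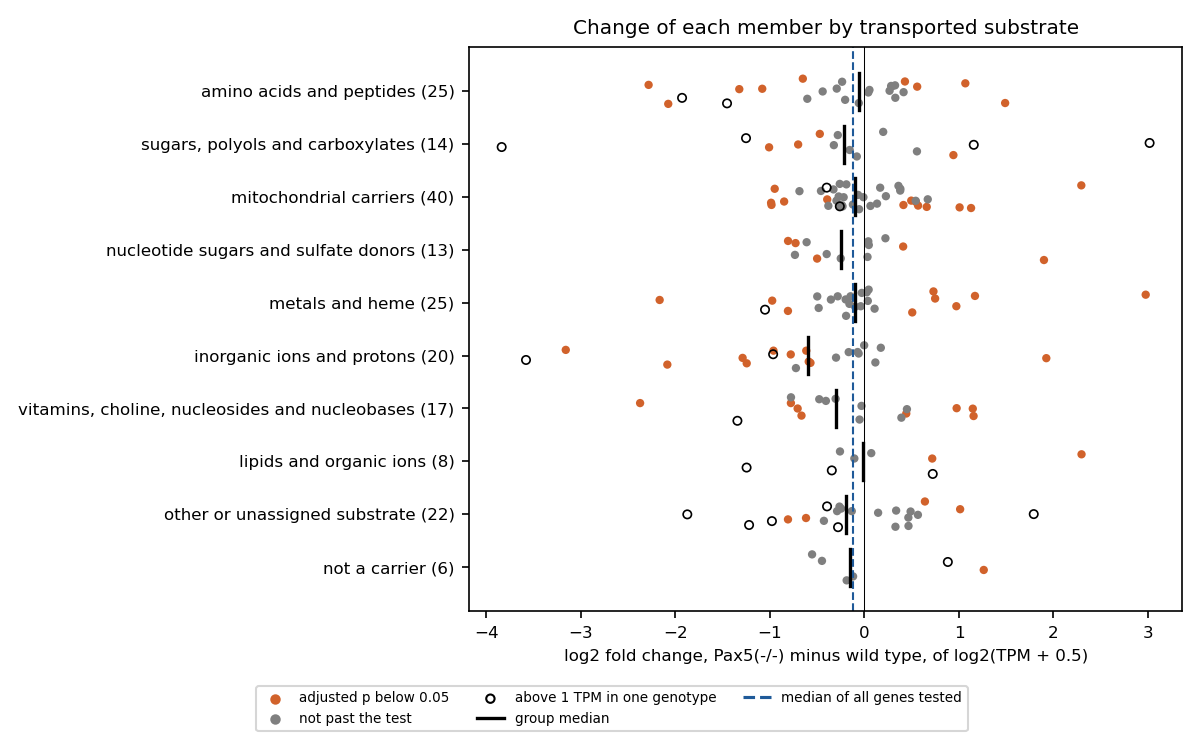
Log2 fold change (Pax5(-/-) minus wild type, on log2(TPM + 0.5)) of each of the 190 members by substrate group, with the group size in brackets. Filled orange points passed an adjusted p of 0.05, open points passed 1 TPM in one genotype only, black bars are group medians and the dashed line is the median of all genes tested (-0.12). The inorganic ion group has the lowest median, -0.60.

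Carriers without an Slc name were taken from a list of 49, of which 36 could be tested. At an adjusted p below 0.05 there were 5 lower and 6 higher, or 13.9% and 16.7%, beside 21.5% and 15.6% of all genes. By the study's thresholds 1 was lower and 2 were higher, beside 3.15% and 2.71% of all genes. The lower one, Rhag, passed 1 TPM only in wild type, so the direction of its difference was set by that limit. Ucp2, a carrier of the inner mitochondrial membrane, was at 3297, 3808 and 2917 TPM in wild type, beside 2897, 2760 and 3069 TPM for the summed Slc mitochondrial group, and fell to 1610 and 1584 TPM (log2 fold change -1.06 ± 0.13, SE, adjusted p = 0.00101). Spns2, which exports sphingosine-1-phosphate, rose from 2.38, 4.49 and 3.31 TPM to 89.0 and 88.4 TPM (log2 fold change 4.55 ± 0.24, SE, adjusted p = 1.81e-05). Its relative Spns3 rose from 42.9 to 132 TPM. Rhag, an ammonium carrier of red cells that passed 1 TPM only in wild type, had means of 7.20 and 0.983 TPM. Emb, a partner protein of monocarboxylate carriers, rose from 33.3, 32.7 and 25.8 TPM to 139 and 148 TPM, whereas Bsg, a related partner, did not pass the test (adjusted p = 0.654).

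The Meox2-cre libraries were aligned to mm10 and counted on another annotation, so their levels are given apart, with no test. All 190 members had an entry there, 182 had a mean above 1 TPM and 140 above 5 TPM. The summed members held 8914, 8923 and 8654 TPM, or 0.865 to 0.892% of the total, against 0.724 to 0.814% in wild type and 0.790 to 0.821% in Pax5(-/-). The most abundant were Slc25a3 at 816 ± 26.3 TPM, Slc25a5 at 596 ± 59.7 TPM and Slc1a5 at 383 ± 28.8 TPM (SD, n = 3). Among members above 5 TPM the median coefficient of variation was 6.90%, and the highest was 60.0% for Slc38a5, at 12.5, 5.57 and 4.16 TPM.

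Set beside the wild-type means, with the builds and annotations different, no member differed by more than 3-fold on the log2(TPM + 0.5) scale, and 145 were higher in Meox2-cre. The logarithms of both means had r = 0.985 over the 190 members, which share libraries and gene lengths. For all 15 members past the study's thresholds the Meox2-cre mean lay nearer the wild-type mean than the Pax5(-/-) mean. The 15 were chosen for a change over 3-fold between those 2 genotypes, so this count is a description and no test. Slc25a1 was at 277, 277 and 270.2 TPM, Slc39a4 at 1.86, 1.80 and 1.65 TPM and Slc35a1 at 9.17, 10.5 and 9.83 TPM. Slc12a3 was at 17.8, 18.7 and 20.5 TPM, Slc52a3 at 15.8, 12.6 and 18.3 TPM and Slc5a9 at 1.05 ± 0.105 TPM. Slc45a3 varied more, at 6.87, 9.77 and 15.6 TPM. Slc36a1os was listed at 0 in all 3 libraries. The erythroid marker sum was 2536 to 3791 TPM in the Meox2-cre libraries, most of it Hbb-b2, an entry found only in the mm10 tables, and Slc4a1 was at 197, 197 and 132 TPM.

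**Figure D5:**
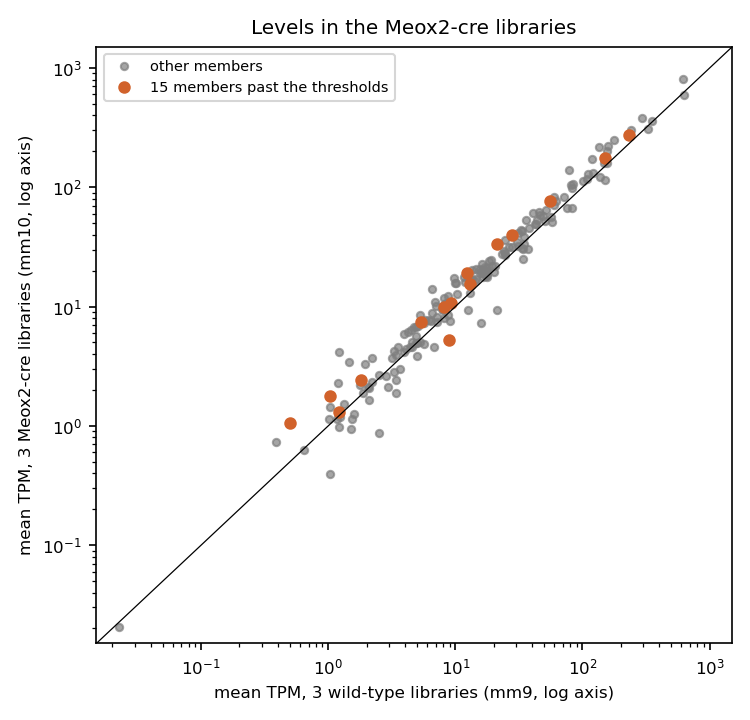
Mean TPM of each member in the 3 wild-type libraries (mm9) against the 3 Meox2-cre libraries (mm10), both on log axes, with the line of equal values and the 15 members past the study's thresholds in orange. Points follow the line, most of them slightly above it, and Slc36a1os, at 0 in Meox2-cre, is not drawn.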

How the data were processed

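Per the labels and the methods, the authors aligned the wild-type and Pax5(-/-) reads to mm9 with TopHat 1.4.1a and the Meox2-cre reads to mm10 with STAR 2.4.2a, counted them per gene with featureCounts 1.5.0 and deposited 1 TPM table per library. TPM in each table sum to 1000000 and keep no depth, so no intervals from counts are given. The entry names of 21 members, 2 of them past the study's thresholds, carry the mark OVL, whose meaning is not given in the sources used here.

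Members and lists were chosen with earlier results of these data known. The genotype difference was fitted in limma 3.58.1 (R 4.3.3), with a trend, on log2(TPM + 0.5) of every gene whose mean exceeded 1 TPM in either genotype. Benjamini-Hochberg adjustment ran over all of them. The pseudocount shrinks small values, so fold changes of low genes are understated. An exact permutation test over 3 and 2 libraries cannot go below p = 0.1. The fit was tested on simulated data. Substrate groups were assigned by hand by gene family. Named members were those past the study's thresholds, the 3 most abundant and the one with the smallest adjusted p of each group, those beside the limit and the non-carriers; the other members named were chosen after their values were seen. Alternatives varied the pseudocount, filter, variance model, scaling, threshold and libraries. The ChIP-seq samples were not used here. Some members and markers are not reported here by name.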

Additional observations from a re-analysis of the deposited data

How the results depend on the processing

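No paired analysis was possible because the titles and other labels of the compared libraries give no replicate numbers, and those used here only name libraries. Leaving out each library in turn gave 13 to 53 members lower and 13 to 41 higher at an adjusted p below 0.05. Without the first Pax5(-/-) library 16 were lower and 13 higher, without the second 13 and 15, and without the second wild-type library 27 were lower. By the study's thresholds 6 to 9 were lower and 6 to 7 higher. The lower counts at an adjusted p below 0.05 moved with those of all genes when a wild-type library was left out. With the first left out, 53 of 190 members were lower, beside 26.7% of all genes. With the second, 27 of 187 were lower, beside 16.3%, and with the third, 33 of 185, beside 18.9%. The shares with a Pax5(-/-) library left out are given above. All these counts include members above 1 TPM in only one genotype. Of the 168 above it in both, 41 were lower and 30 higher without the first wild-type library. Without the second, 22 were lower and 23 higher, and without the third 28 and 37. The share of all genes above 1 TPM in both genotypes was not computed for these fits. No share of all genes is given for the study's thresholds with a library left out. Testing against a 3-fold change itself left 2 lower and 3 higher of all 190 members, beside 1.38% and 1.12% of all genes. Of these members, 0 lower and 2 higher passed 1 TPM in both genotypes. A 2-fold threshold gave 13 lower and 15 higher of all 190 members, against 9 and 6 at 3-fold. The share of all genes at 2-fold was not computed. Slc38a5, which passed 1 TPM only in wild type, did not meet the thresholds without a filter or with eBayes without a trend. Nor did it without the second or the third wild-type library or when tested against a 3-fold change itself, and it is described by its values alone. Slc4a1 lost its call with robust eBayes, when tested against a 3-fold change itself and without the second wild-type library. Calls in fits that left out a Pax5(-/-) library are not listed here for either gene. Without the second Pax5(-/-) library the log2 fold change was -1.67 for Slc4a1 and -1.54 for Slc6a9.

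Rescaling by median ratios moved the median of all genes from -0.12 to -0.00306. The median of the members became -0.0466 under that scaling, that of amino acid carriers 0.0525, mitochondrial carriers 0.0454, nucleotide sugar carriers -0.14, metal carriers 0.0133 and other substrates 0.12. Quantile normalization gave 0.0504 for amino acid, -0.14 for nucleotide sugar and -0.0586 for other carriers. With a mean above 5 TPM required the median was -0.0415 for vitamin and nucleoside, 0.39 for lipid and 0.33 for other carriers, and with a mean over all libraries above 1 TPM it was 0.00518 for other carriers. Leaving out each library gave medians of -0.23 to -0.0406 for all members, -0.16 to 0.0145 for amino acid, -0.16 to 0.0451 for mitochondrial, -0.22 to 0.0251 for metal, -0.39 to -0.18 for vitamin and nucleoside, -0.11 to 0.25 for lipid and -0.34 to 0.0430 for other carriers. The inorganic ion median stayed between -0.70 and -0.49. Members not past the test that changed sign were Slc22a5 (-0.0415 to 0.25), Slc27a4 (-0.17 to 0.0184), Slc35a4 (-0.0555 to 0.12) and Slc35c2 (-0.00421 to 0.0963) over the libraries left out, and Slc27a4 under median ratios (0.00531). The cause of these changes was not tested.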
